A study of Mus musculus with 5 samples.

Results

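Subcluster C1 was the main macrophage population of the thioglycollate-elicited library in a mouse single-cell study of foreign body granulomas. Its members were the cells that the authors' deposited myeloid clustering calls C1, 6543 of the 41191 cells in the series. The elicited library, titled control by the submitters, held 6476 of them, and the 4 granuloma libraries (sponge at 2 and 4 weeks, silk at 2 and 4 weeks) held 67 in all. Each group is 1 library, made with a droplet 3′ kit that tags every captured transcript with a unique molecular identifier (UMI). The labels describe the control only as thioglycollate-elicited macrophages, so strain, age, sex, the number of animals, the site of collection and the harvest time of these cells were not available from those labels.

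Thioglycollate broth injected into the peritoneal cavity is a classical way to draw monocytes there, and these mature into macrophages over the following days. The undisturbed cavity holds large peritoneal macrophages, which depend on the transcription factor GATA6 and carry the phosphatidylserine receptor TIM4, and small peritoneal macrophages, which descend from monocytes and carry MHC class II and CCR2. An inflammatory stimulus removes most of the large resident cells from the recoverable fluid, and recruited cells then dominate the harvest.

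C1 made up 71.6% of the 9039 cells of the control library (exact 95% binomial interval 70.7 to 72.6) and 81.9% of the 7912 cells that the authors classed there as monocytes, macrophages and dendritic cells. Its control cells held 56328937 UMIs, with medians of 7351.5 UMIs and 2440.5 genes a cell and of 3.56% mitochondrial UMIs. The spread in depth was wide, from 346 to 66665 UMIs, and 705 cells lay under 2000 UMIs. The same library held 706 cells of subcluster C2, which were deeper (median 16763.5 UMIs), and 550 of subcluster C10 (median 6788 UMIs). Over the 5 libraries the median depth per cell ran from 3818 to 7109 UMIs, and 153 barcodes occurred in more than 1 library, among them those of 51 C1 cells, with none of the 67 granuloma barcodes in the control.

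The 67 C1 cells of the granuloma libraries went against their name. There were 2 in sponge at 2 weeks, 14 in sponge at 4 weeks, 26 in silk at 2 weeks and 25 in silk at 4 weeks, with median depths of 4951, 1464, 840 and 929 UMIs. After every C1 cell was thinned to 988 UMIs, the 34 granuloma cells deep enough to enter detected a mean of 0.941 of the 6 markers given with the cluster (Ltc4s, Cd5l, Fcna, Apoe, Trf and Selenop), against 3.43 in 6153 control cells. At least 3 of the markers were seen in 11.8% of these granuloma cells and in 79.4% of the control cells. The growth factor receptor gene Csf1r, which marks nearly all macrophages, had a UMI in 0 of the 34 granuloma cells (upper limit 8.82%) and in 40.1% of the control cells, and unthinned in 8 of all 67 (11.9%) and in 86.5% of the control cells. Some other myeloid genes were nearer: the signalling adaptor Tyrobp was found after thinning in 82.4% against 91.0%, Cd68 in 38.2% against 51.3% and the transcription factor gene Spi1 in 23.5% against 23.6%. Others were clearly rarer: Adgre1 was found in 11.8% against 34.9%, Itgam in 11.8% against 36.9% and Fcer1g in 47.1% against 80.3%. No core myeloid gene was found more often in the granuloma cells. Of further genes looked up in these cells, metallothionein Mt3 was found in 38.2% against 0.163%, and brain-type creatine kinase Ckb in 64.7% against 11.2%. Other granuloma cells were not set beside these values. Among the 26 cells of silk at 2 weeks, 2 cells held Gata6, Timd4 and Cd5l together, and the 2 Gata6, 8 Timd4 and 32 Cd5l UMIs of this library's C1 each came from 2 cells. No count of changed genes is given for so few cells, and every result that follows rests on the 6476 control cells.

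Counts were summed over the cells of each deposited subcluster in each library, here called a unit, and scaled to a sum of 1000000 in each unit (CPM). C1 was set beside the 23 other myeloid units of at least 50 cells, namely C2 and C10 of the control and 21 units of the granuloma libraries from subclusters C3 to C8. A difference is log2 of the ratio of the 2 CPM values with 10 CPM added to each, which understates the change of low genes. A gene was compared when the higher unit reached 100 UMIs and 50 CPM, and it was counted as higher or lower from 2-fold. With 1 library per group and subclusters cut from the same counts, these are descriptions without a test, and every interval covers counting error only. Site, material, tissue digestion and library cannot be told apart between C1 and any granuloma unit, whereas C2 and C10 shared the library of C1.

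The control C1 cells carried a macrophage profile. The 12 core myeloid genes summed to 29368 CPM, most of it from lysozyme Lyz2 at 21162 CPM, while the F4/80 gene Adgre1 stood at 446 CPM, Csf1r at 521 CPM and the lysosomal glycoprotein gene Cd68 at 953 CPM. Because the kit tags transcripts near their 3′ end, the counts were not divided by gene length. Beside Lyz2, the most abundant genes were Fth1 and Ftl1, which encode the ferritin chains and have many pseudogene copies that can share reads, the lipid carrier Apoe, the sphingolipid activator precursor Psap, and the cathepsins Ctsb (9604 CPM), Ctsd (6636 CPM) and Ctss (4819 CPM). The chemokine Ccl6 reached 5580 CPM.

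Markers of other cell types were low in C1. The 10 B cell markers summed to 37.1 CPM against 14477 CPM in the library's own B cells, and the 12 T and NK cell markers to 5.33 CPM against 7064 CPM. The 11 neutrophil markers summed to 104 CPM, 57.0 of them from the G-CSF receptor gene Csf3r, and the 11 dendritic cell markers to 52.5 CPM, 46.3 of them from the transcription factor Batf3. The 10 fibroblast markers gave 2821 CPM, of which fibronectin Fn1, a gene that macrophages also express, made 2820 CPM. Of the 10 mesothelial markers 6 were at 0 and the sum was 0.107 CPM.

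Large peritoneal macrophage genes differed widely in level. Cd5l, Fcna and the acute-phase gene Saa3 were abundant, whereas Gata6 stood at 3.28 CPM and Timd4 at 3.75 CPM. The defining pair was thus near 0 in C1 as a whole, and a small fraction of cells that carried it is described further on.

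By the smallest log2 difference from any other unit, with 10 CPM added, Ltc4s (2.32) and Padi4 (2.25) set C1 apart most. The added CPM understate Padi4 more than Ltc4s, since its levels are lower. Of the 1115 genes that could be compared with every other unit, 8 were at least 2-fold higher in C1 than in all 23 units (0.717%) and 0 were 2-fold lower (0%). Among the 8 were Ltc4s, Padi4, Cd5l, Hal, Fcna, Wfdc17 and the gene model Gm16104. The named genes join an enzyme of leukotriene synthesis, a histone-modifying enzyme, an enzyme of histidine breakdown and secreted proteins of innate defence.

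Ltc4s encodes leukotriene C4 synthase, which joins leukotriene A4 to glutathione, and lies on GRCm38 (mm10) at chr11:50236461-50238616. It stood at 869 CPM in C1 (861 to 876), 122 CPM in C2 and 166 CPM in C10. The 21 granuloma units ran from 0 CPM (C3 of sponge at 2 weeks, which allows 1.41 CPM) through a median of 21.9 CPM to 113 CPM in C5 of sponge at 4 weeks. No unit overlapped C1: it was 7.10-fold above C2 (6.76 to 7.46) and 5.24-fold above C10 (4.85 to 5.67). After thinning to 2000 UMIs, 68.3% of C1 cells held an Ltc4s UMI, against 15% in C2 and 18.9% in C10. The share was 9.35% in B cells and 8.80% in NK and T cells of the same library, which should lack it. Whether the UMIs in those lymphocytes came from free RNA or from doublets was not tested. The 5771 C1 cells, 706 C2, 530 C10, 642 B and 284 NK and T cells deep enough to enter had unthinned medians over all their cells of 7351.5, 16763.5, 6788, 4513.5 and 2725 UMIs, and unthinned 82.3% of C1 cells held an Ltc4s UMI.

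Cd5l encodes a secreted scavenger protein also known as apoptosis inhibitor of macrophages (chr3:87357881-87371073). It stood at 334 CPM in C1 (329 to 339), 52.0 CPM in C2, 10.0 CPM in C10 and at most 68.9 CPM in a granuloma unit, C8 of sponge at 2 weeks, with 6 of the 21 units at 0 and a median of 1.64 CPM. Fcna encodes ficolin A, a lectin that starts the complement cascade (chr2:25624666-25628030), and stood at 280 CPM in C1 (276 to 285), 30.7 CPM in C2, 14.1 CPM in C10 and at most 95.6 CPM in a granuloma unit, C5 of silk at 2 weeks. In neither gene did another unit reach C1, and after thinning 29.6% of C1 cells held Cd5l and 28.1% held Fcna, against 3.74% and 3.27% of B cells.

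Padi4, a deiminase that converts arginine to citrulline in histones (chr4:140745865-140774236), stood at 104 CPM against 14.1 CPM in C2, 10.3 CPM in C10 and 13.7 CPM in the highest granuloma unit. Hal, the histidine ammonia lyase gene (chr10:93488768-93519304), stood at 77.4 CPM against 19.3 CPM in C2, 10.0 CPM in C10 and at most 4.37 CPM in granuloma. Wfdc17, which encodes a small secreted protein with a whey acidic protein fold, was the most abundant of the set at 4306 CPM, against 1578 CPM in C2, 1629 CPM in C10 and 133 to 1894 CPM in granuloma. For Hal the nearest unit was C2, whereas for Wfdc17 it was C5 of sponge at 2 weeks, so the closest neighbour of C1 changed with the gene.

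**Figure D1:**
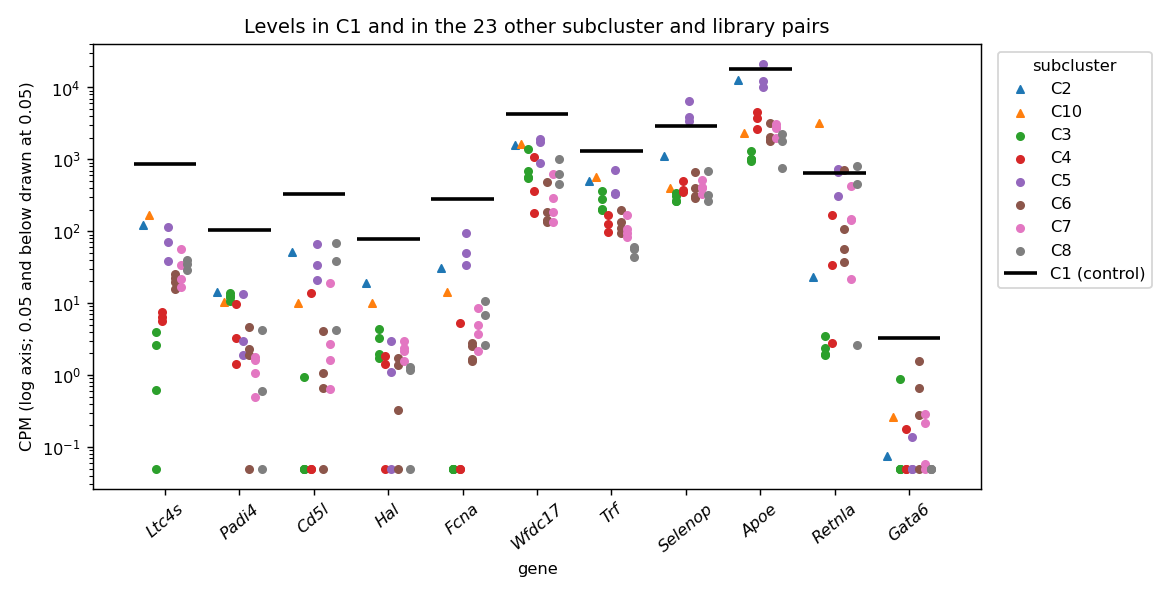
Level (CPM, log axis, values of 0.05 and below drawn at 0.05) of 11 genes in C1 of the control library (black bar) and in the 23 other myeloid units (triangles for C2 and C10 of the control, circles for the granuloma units, coloured by subcluster). The bar for Ltc4s at 869 CPM stands above every other point, whereas C5 units reach or pass C1 for Selenop and Apoe.

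The other 3 markers given with the cluster were less exclusive. Trf, the transferrin gene (chr9:103204001-103230444), stood at 1321 CPM in C1 against 506 CPM in C2, 572 CPM in C10 and 702 CPM in C5 of silk at 2 weeks, 0.90 log2 units from its nearest unit. Selenop, which encodes the selenium transport protein (chr15:3268547-3280508), stood at 2882 CPM in C1, below the 3405 to 6418 CPM of the 3 C5 units and above the other 20 units. Apoe (chr7:19696109-19699188) stood at 18320 CPM in C1, 12737 CPM in C2, 2318 CPM in C10 and 758 to 21089 CPM in granuloma, with C5 of silk at 2 weeks above C1. Selenop and Apoe were thus not highest in C1.

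Among the genes whose level over the 24 units was most like that of Ltc4s were the transcription factor Nfic (Pearson r of log2 CPM + 10, 0.91), the membrane protein gene Tmem141 (0.89), Plxnc1 (0.86) and Dennd4c (0.85). These correlations describe 24 units that share 5 libraries and differ in depth. Tmem141 (chr2:25620067-25622005) is a neighbour of Fcna on chromosome 2.

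The sequences upstream of Ltc4s, Cd5l and Fcna are shown because these 3 genes separated C1 from every other unit by the clearest margins among its given markers. They are the windows of 250 bases before the RefSeq start (GRCm38.p6), less any bases inside the GENCODE gene model, written 5′ to 3′ on the gene's strand. Capitals mark the letters GAGGAA (a core bound by PU.1 and related ETS factors) and TGCTGA (a MAF recognition core), searched on both strands, so that TTCCTC and TCAGCA are the same letters read from the other strand. The GATA letters AGATAA were searched as well and the 3 motifs do not overlap in these windows.
Ltc4s, chr11:50238617-50238782, minus strand: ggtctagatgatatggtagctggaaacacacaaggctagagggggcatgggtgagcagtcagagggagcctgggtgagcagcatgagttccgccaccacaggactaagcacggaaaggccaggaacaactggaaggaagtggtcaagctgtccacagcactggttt
Cd5l, chr3:87357631-87357880, plus strand: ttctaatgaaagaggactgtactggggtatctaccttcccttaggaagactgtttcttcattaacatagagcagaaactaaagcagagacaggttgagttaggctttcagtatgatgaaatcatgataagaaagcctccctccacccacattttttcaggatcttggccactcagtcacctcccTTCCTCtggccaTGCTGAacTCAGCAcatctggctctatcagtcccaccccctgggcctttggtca
Fcna, chr2:25628031-25628224, minus strand: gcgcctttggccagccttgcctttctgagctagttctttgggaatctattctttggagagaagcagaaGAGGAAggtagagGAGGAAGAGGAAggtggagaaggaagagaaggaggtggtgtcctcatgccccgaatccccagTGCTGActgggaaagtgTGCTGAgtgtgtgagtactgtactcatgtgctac

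The Cd5l window held 1 match to the ETS core and 2 to the MAF core, the Fcna window held 3 and 2, and the Ltc4s window held none of the 3 motifs. Of the 12 genes leading the comparison with every unit, 10 had an entry in the promoter table, and among these 5 held the ETS core, 4 the MAF core and 0 the GATA letters in their 250 bases. Over all 15020 promoters of the same length the shares were 23%, 13.9% and 7.24%, and over 873 tested genes 25.7%, 10.8% and 5.73%. The matches describe letters in a window, and no binding was measured.

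Within the control library, C1 held more of the resident-type, antigen-presentation and alternative activation genes than C2 and less of the lipid-associated genes. Of 3125 genes compared, 120 were at least 2-fold higher in C1 (3.84%) and 95 were lower (3.04%). The deeper cells of C2 stand beside this, with a median of 16763.5 UMIs against 7351.5.

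Genes higher in C1 than in C2 included secreted and receptor genes, only some of them known from alternatively activated or recruited cells. Retnla, which encodes the secreted protein RELM-alpha induced by interleukin 4, stood at 645 CPM in C1 and 23.4 CPM in C2, a ratio of 27.6 (24.7 to 30.9). After thinning, 2.55% of C2 cells held a Retnla UMI and 3.40% a Saa3 UMI. Both shares lay under those of B cells in the library (4.05% and 4.83%), so the C2 levels of these 2 genes may be background. The intervals of their ratios do not cover that. Saa3 stood at 781 against 69.0 CPM, the monocyte chemokine receptor Ccr2 at 176 against 15.9 CPM and the endothelin receptor Ednrb at 324 against 40.3 CPM. The protease inhibitor Slpi (6.38-fold), the matrix protein Tgfbi (7.16-fold) and the coagulation factor subunit F13a1 (6.29-fold) were also higher in C1. Part of this came from the 214 C1 cells (3.3%) with a Gata6 or Timd4 UMI, described further on. Cells with neither UMI held Saa3 at 349 CPM, Slpi at 71.0 CPM and arginase Arg1 at 142 CPM. Over all C1 cells these 3 genes stood at 781, 166 and 219 CPM. Of the 12 genes of alternative activation, the programme that interleukin 4 induces, with at least 20 UMIs over both units, 6 were higher in C1 and 0 lower (median 1.02), where 1.45% of all genes measured by the same rule were higher. The 6 were Retnla, Arg1, Mrc1, Clec10a, Irf4 and Ccl24, and against C10 the list gave 3 higher and 4 lower of 13 (median -0.13). Against granuloma units of 2 weeks its median was below 0. It gave 2 higher and 8 lower of 14 for C5 of sponge (median -1.22) and 2 and 8 of 18 for C6 of silk (-0.91). For C4 of sponge it gave 3 and 5 of 17 (-0.51), and for C7 of silk 2 and 5 of 18 (-0.50).

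Genes lower in C1 than in C2 were led by the cell-cycle inhibitor Cdkn1c, at 5.63 CPM in C1 and 83.8 CPM in C2. The interleukin 7 receptor gene Il7r stood at 126 against 738 CPM, the inhibitory ligand Cd200 at 13.5 against 109 CPM and the apoptotic-cell bridging protein Mfge8 at 184 against 983 CPM. Genes of lipid-laden macrophages were lower as well, with the fatty acid binding protein Fabp5 at 2481 against 8581 CPM and the glycoprotein Gpnmb at 2611 against 8227 CPM. C2 was thus 3.46-fold (3.43 to 3.49) above C1 for Fabp5 and 3.15-fold (3.13 to 3.18) above it for Gpnmb, although C1 still exceeded every granuloma unit for Gpnmb (4.37 to 1964 CPM).

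C10 lay farther from C1. Of 3238 genes compared, 340 were at least 2-fold higher in C1 (10.5%) and 190 were lower (5.87%). The C-type lectin gene Cd209a, known from monocyte-derived dendritic cells, stood at 3.78 CPM in C1 and 710 CPM in C10, and the related lectin gene Mgl2 at 8.79 against 412 CPM. The MHC class II chains H2-Aa (757 against 8637 CPM), H2-Ab1 and H2-Eb1 (325 against 6400 CPM) and the invariant chain Cd74 (1556 against 17071 CPM) differed by -3.49, -3.74, -4.26 and -3.45 log2 units (C1 minus C10). C10 also held 1092 CPM of the dendritic cell markers, against 52.5 CPM in C1, and Ccr2 at 1718 CPM against 176 CPM.

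In the other direction, C1 held phagocyte genes that C10 had at low levels. Saa3 was 44.1-fold higher in C1 (34.8 to 56.6), Cd5l 33.4-fold (24.4 to 46.9), arginase Arg1 31.6-fold (21.7 to 47.9) and the platelet factor Pf4 22.6-fold (18 to 28.7). After thinning, 3.02% of C10 cells held Saa3 and 1.70% held Cd5l, under the 4.83% and 3.74% of B cells in the library. The C10 levels of these 2 genes may thus be background, and the intervals of their ratios do not cover that. Gpnmb stood at 2611 against 133 CPM, osteopontin Spp1 at 567 against 40.3 CPM and the protease gene Ctsl at 1461 against 106 CPM. Retnla ran against this pattern at 645 CPM in C1 and 3156 CPM in C10, so for this gene C1 stood between C2 and C10.

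**Figure D2:**
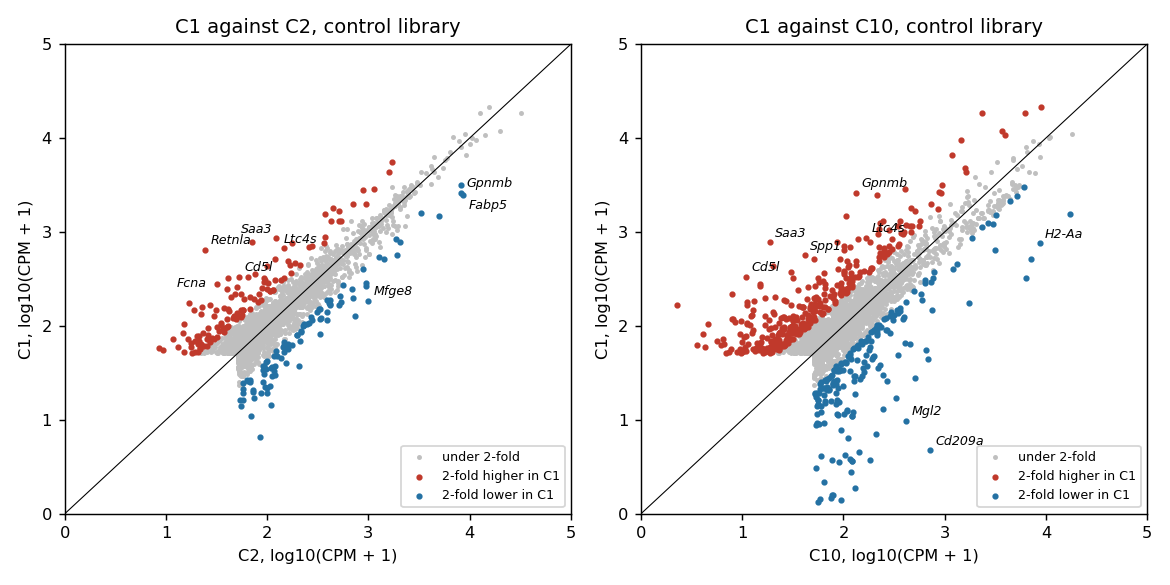
Levels in C1 (vertical axis) against C2 (left) and C10 (right) of the control library, log10(CPM + 1), for the 3125 and 3238 genes compared, with those at least 2-fold higher in C1 in red and 2-fold lower in blue. The cloud against C10 is the broader of the pair, with 340 red and 190 blue genes against 120 and 95 for C2.

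Gene lists of known function were then followed through 6 units: C2 and C10 of the control, and the 4 largest granuloma subclusters, each in the library holding most of its cells (C7 and C6 of silk at 2 weeks, C4 and C5 of sponge at 2 weeks). A member was measured when the 2 units together held 20 UMIs. Under that rule the share of all genes at least 2-fold higher or lower in C1 was 1.45% and 0.95% against C2, 3.87% and 2.49% against C10, 2.66% and 4.05% against C7, 3.61% and 5.83% against C6, 3.87% and 5.46% against C4, and 1.95% and 4.03% against C5. Under the stricter rule of 100 UMIs and 50 CPM, the share of genes higher and lower in C1 was 6.95% and 10.6% against C7, 8.3% and 14.9% against C6, 9.6% and 15.1% against C4, and 4.69% and 10.7% against C5. The median difference over all genes lay between 0.02 and 0.08 log2 units in the 6 comparisons.

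**Figure D3:**
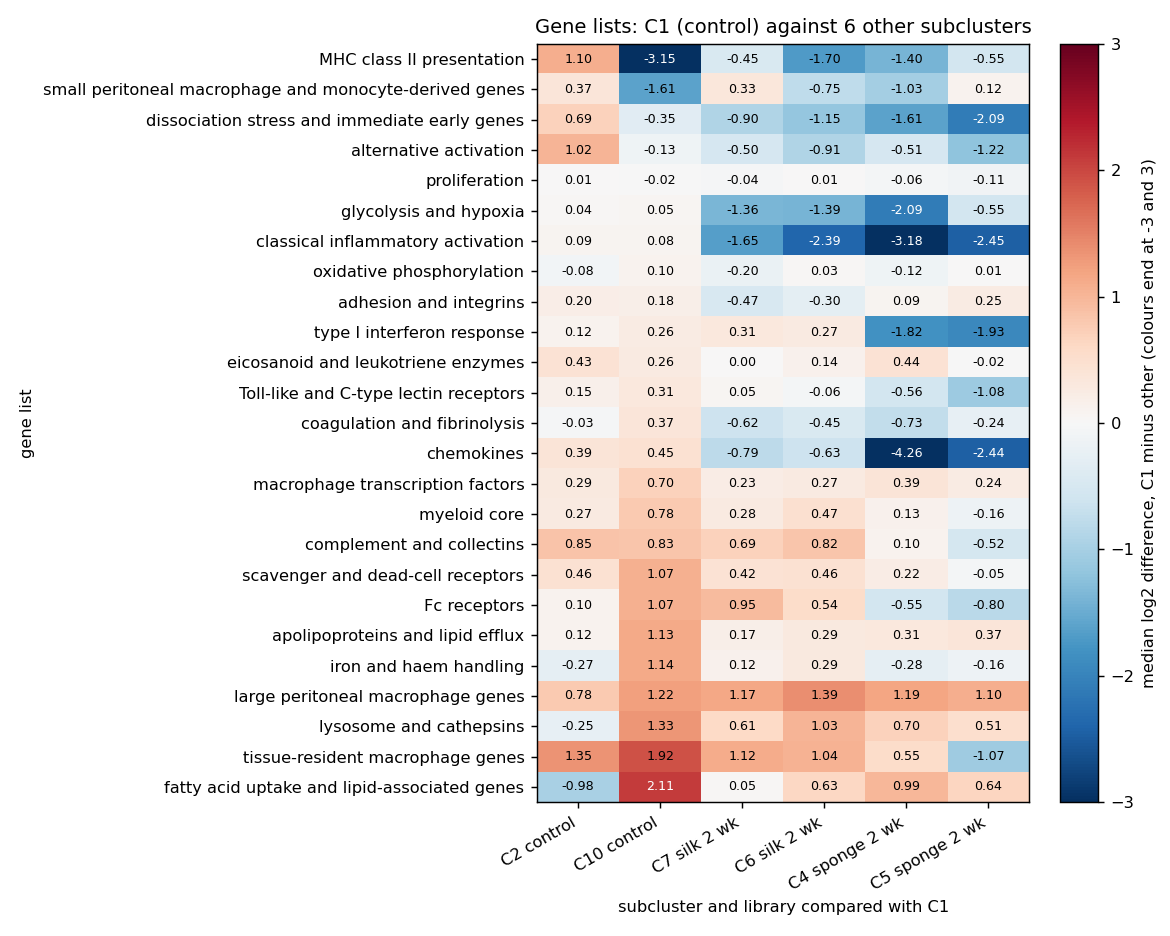
Median log2 difference over the measured members of each gene list, C1 of the control minus the unit named under each column, with red for higher in C1 and blue for lower. MHC class II genes change sign between C2 (1.10) and C10 (-3.15), and the inflammatory and glycolysis lists lie between 0.04 and 0.09 against the control units and below 0 against the granuloma units.

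Lipid-associated genes placed C1 between C2 and C10. This list covers fatty acid uptake, lipid droplets and the genes of lipid-laden macrophages. Of its 16 members 0 were higher and 8 lower against C2 (median -0.98), and 14 were higher and 0 lower against C10 (median 2.11). The lipid receptor Trem2 stood at 787 CPM in C1, 1275 CPM in C2, 85.6 CPM in C10 and 36.2 to 659 CPM in granuloma. The adipocyte fatty acid binding protein Fabp4 stood at 513 CPM in C1, 1426 CPM in C2, 50.4 CPM in C10 and at most 242 CPM in granuloma. Spp1 differed from these, since 15 of the 23 units exceeded C1 at least 2-fold, with a highest level of 11436 CPM in C7 of sponge at 2 weeks.

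Lysosomal genes were more often higher than lower in C1 against 5 of the 6 units, C2 being the exception. Of 24 measured, 19 were higher and 0 lower against C10 (median 1.33), 13 and 1 against C6, 11 and 1 against C4, 7 and 1 against C7 and 6 and 2 against C5, while 1 was higher and 4 lower against C2 (median -0.25). The membrane glycoprotein Lamp1 stood at 2671 CPM in C1, 2904 CPM in C2, 870 CPM in C10 and 650 to 2193 CPM in granuloma. The proton pump subunit Atp6v0d2, a gene of multinucleated phagocytes, stood at 264 CPM in C1 but 941 CPM in C2 and 13.9 CPM in C10. Cathepsin C was an exception, at 241 CPM in C1 and at least 2-fold higher in 15 of the 23 units.

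Cholesterol export and carrier genes in C1 differed more from C10 than from the rest: of 16 members, 10 were higher and 0 lower against C10 (median 1.13) and 2 and 0 against C2 (median 0.12). Pltp, the phospholipid transfer protein gene, stood at 1959 CPM in C1, above all other units including C5 of sponge at 2 weeks (1740 CPM). The cholesterol exporter Abca1 ran the other way and was at least 2-fold higher than C1 in 13 units, all of them granuloma units. Among the 15 measured iron and haem genes, 8 were higher and 1 lower against C10 (median 1.14), and the haem oxygenase gene Hmox1, at 201 CPM in C1, was at least 2-fold higher in 19 units.

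Resident-type genes were higher in C1 than in C2 and C10 and lower than in C5. Of 17 measured, 12 were higher and 0 lower against C2 (median 1.35), 13 and 1 against C10 (median 1.92), 10 and 1 against C7, 9 and 0 against C6, 4 and 2 against C4, and 0 and 9 against C5 (median -1.07). The complement starter C1qa stood at 1781 CPM in C1, 445 CPM in C2 and 464 CPM in C10, but at 5107 CPM in C5 of sponge at 4 weeks. The folate receptor gene Folr2 stood at 201 CPM in C1 against 43.3 CPM in C2, 20.3 CPM in C10 and 593 CPM in C5 of sponge at 2 weeks. The mannose receptor Mrc1 stood at 309 CPM in C1, 136 CPM in C2 and 362 CPM in C10, and at 1879 CPM in C5 of silk at 2 weeks. Over the whole list, C1 had resident-type transcripts above C2 and C10 and below C5.

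The complement list, which shares the C1q genes, Fcna and Vsig4 with other lists, had 8 members higher and 1 lower of 17 against both C2 (median 0.85) and C10 (median 0.83). Against granuloma units it gave 8 and 2 for C7 and for C6 (medians 0.69 and 0.82), 3 and 3 for C4 (median 0.10) and 1 and 5 of 18 for C5 (median -0.52). The anaphylatoxin receptor C3ar1 stood at 712 CPM in C1, 649 CPM in C2 and 101 CPM in C10, above every granuloma unit (9.76 to 695 CPM). The central component C3 was low in C1 at 14.7 CPM and at least 2-fold higher in 19 units. Of the large peritoneal macrophage list, 8 of 17 members were higher against C2 and 9 against C10 with 0 lower in either, and its median was above 0 in all 6 comparisons (0.78 to 1.39). Much of this came from few cells: the 214 C1 cells (3.3%) with a Gata6 or Timd4 UMI held 58.2% of the Prg4 UMIs, 66.4% of Vsig4, 65.0% of Tgfb2, 72.7% of Selp and 58.2% of Saa3, against 14.2% of Cd5l and 7.04% of Fcna. The 214 cells were deeper than the rest (median UMIs 16963 with both, 13537 with only 1 and 7234 with neither). Their share of all UMIs was therefore above 3.3%. Without those cells, an alternative chosen after the data were seen, 5 members were higher against C2 (median 0.51) and 6 against C10 (median 0.69), with 0 lower in either. Its member Cd93, a complement-related receptor, stood at 512 CPM in C1, 529 CPM in C2 and 90.4 CPM in C10. The small peritoneal macrophage list, with Ccr2, Irf4 and Cd226, had 1 member higher and 7 lower of 10 against C10 (median -1.61) and 3 and 0 against C2 (median 0.37).

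Antigen-presentation genes formed a second axis within the control library. Of the 12 MHC class II genes 7 were higher and 0 lower against C2 (median 1.10), and 0 were higher and 9 lower against C10 (median -3.15). Their transactivator Ciita stood at 25.0 CPM in C1, 6.42 CPM in C2 and 270 CPM in C10. Against granuloma units the counts were 2 higher and 2 lower for C7, 0 and 7 for C6, 0 and 7 for C4 and 0 and 3 for C5. The costimulatory genes Cd86 (14.4 CPM) and Cd80 (8.84 CPM) were low in C1, C2 and C10 and at least 2-fold higher in 17 and 20 other units.

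Leukotriene and prostaglandin enzymes did not move as a block with Ltc4s. Of the 15 to 16 members measured, between 2 and 6 were higher and between 0 and 4 lower in the 6 comparisons, and the medians lay between -0.02 and 0.44. The 5-lipoxygenase gene Alox5, which makes the precursor of leukotriene A4, stood at 27.8 CPM in C1, 2.73 CPM in C2, 10.8 CPM in C10 and up to 60.4 CPM in granuloma. Its activating protein gene Alox5ap was abundant throughout, at 766 CPM in C1, 364 CPM in C2 and 982 CPM in C10. Lta4h, whose enzyme takes leukotriene A4 down the other branch to leukotriene B4, stood at 41.6 CPM in C1 and between 22.6 and 57.6 CPM in the other units. Cyclooxygenase genes were split: Ptgs1 stood at 50.2 CPM in C1 and at most 20.9 CPM in granuloma, whereas the inducible Ptgs2 stood at 0.0533 CPM in C1 and between 45.1 and 1122 CPM there.

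Inflammatory genes were mostly lower in C1 than in the granuloma units, while few passed 2-fold against C2 or C10. Of the classical activation list 2 were higher and 0 lower of 12 against C2 and 0 and 1 of 12 against C10 (medians 0.09 and 0.08), but 14 of 17 were lower against C4 (median -3.18), 8 of 14 against C6, 8 of 14 against C7 and 9 of 15 against C5. Il1b, the interleukin 1 beta gene, stood at 1.15 CPM in C1, 0.443 CPM in C2, 39.6 CPM in C10 and 174 to 3674 CPM in granuloma, so no granuloma unit overlapped the control. Nos2, the inducible nitric oxide synthase gene, had 0 UMIs in C1, which allows 0.0533 CPM, and 226 CPM in C4 of sponge at 2 weeks. Within the control library the order of Il1b was C10 above C1 and C2. Chemokine genes were higher for 4 of 14 members against C2 with 0 lower (median 0.39), and for 4 of 14 against C10 with 1 lower (median 0.45). The 4 against C2 were Ccl6, Ccl9, Ccl24 and Pf4, all secreted attractants, with Ccl9 at 1650 CPM in C1, 514 CPM in C2 and 1447 CPM in C10. Against granuloma units they were lower for 14 of 19 members against C4, 15 of 18 against C5, 9 of 20 against C7 and 8 of 19 against C6, with Cxcl2 at 42.5 CPM in C1 and 374 to 6050 CPM in granuloma, although Ccl6 was at least 2-fold higher in C1 than in 19 units.

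Hypoxia and glycolysis genes showed the same division between libraries. Against C2 and C10 the medians of the 23 genes were 0.04 and 0.05. Against C4, C6 and C7 20, 15 and 14 members were lower, and against C5 only 7 (median -0.55), with 0 higher in each. Vegfa, the vascular growth factor gene, stood at 11.6 CPM in C1, 17.6 CPM in C2, 1.54 CPM in C10 and 55.3 to 668 CPM in granuloma. The glycolytic kinase gene Pgk1 stood at 116 CPM in C1 and 212 to 1139 CPM in granuloma. Interferon-response genes were lower against C4 (14 of 16) and C5 (12 of 16) with medians near 0 elsewhere (0.12 to 0.31), so this list split the granuloma units themselves.

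Immediate early and stress genes, which tissue digestion is known to induce, were also more often lower than higher in C1 against these granuloma units. They ordered the units differently from the glycolysis list. Of 20 genes, 15 were lower in C1 against C5, 12 against C6, 11 against C4 and 7 against C7. Against C10 of the same library 3 were lower and 0 higher (median -0.35). Against C2, 6 were higher and 1 lower (median 0.69). Junb stood at 261 CPM in C1, 141 CPM in C2, 480 CPM in C10 and 878 to 4536 CPM in granuloma. The heat shock genes Hspa1a (45.2 CPM) and Hspa1b (21.8 CPM) stood lower in C1 than in any granuloma unit (110 to 808 and 144 to 910 CPM), with the caveat that these near-identical copies can share reads. The part of this list in the inflammatory and glycolysis results was not tested. The flow-sensitive transcription factor Klf2 ran against the list at 1305 CPM in C1, above all 23 units.

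When only the 21 granuloma units were compared, the 1124 comparable genes included 21 that C1 held at 2-fold or more above all of them (1.87%) and 18 were lower in all of them (1.6%). Among the higher genes, chosen for mention after their values were seen, the hypoxia-inducible factor gene Epas1 stood at 62.3 CPM in C1, 79.4 CPM in C2, 5.14 CPM in C10 and 1.39 to 6.55 CPM in granuloma. Isocitrate dehydrogenase Idh1 stood at 343 CPM in C1, 239 CPM in C2, 178 CPM in C10 and 35.4 to 160 CPM in granuloma. The 18 lower genes, picked in the same way, included Il1b, Cxcl2, the orphan nuclear receptors Nr4a1 (9.44 CPM against 150 to 748) and Nr4a2 (4.33 CPM against 128 to 884), and the kinase gene Pim1 (106 CPM against 475 to 1737), several of them immediate early genes. Among the genes that could be compared with all 23 units, Pim1 was also the one closest to being 2-fold lower throughout, at 183 CPM in C2 and 181 CPM in C10.

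Oxidative phosphorylation genes, encoded in the nucleus, gave 0 higher and 0 lower of 20 in each of the 6 comparisons, with medians between -0.20 and 0.10. Proliferation genes also gave 0 and 0 in each, and Mki67 stood at 2.09 CPM in C1 against 296 CPM in C8 of silk at 2 weeks. After thinning, 0.381% of C1 cells held a Mki67 UMI, against 0 of 706 C2 cells (upper limit 0.425%) and 0 of 530 C10 cells (upper limit 0.566%), a difference not detectable at this depth.

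C1 cells varied most in Retnla and Saa3. Over the 5771 cells thinned to 2000 UMIs, the ratio of variance to mean was 49.3 for Retnla, 34.2 for Saa3, 14.6 for the elastase gene Mmp12, 14.2 for Apoe, 12.2 for Slpi and 11.2 for Cd74, against a median of 1.02 over 7352 genes. The 10% of cells with the most Retnla UMIs held 98.3% of them, and the same share was 97.5% for Saa3 but 32.8% for Ltc4s and 22.4% for Apoe. Retnla and Saa3 were thus carried by few cells each, whereas Ltc4s was spread over most.

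The varying genes grouped by their correlation over cells, given here as a description with log2(UMIs + 1) and equal depth. Cd74 and H2-Aa had r = 0.86, and the 4 MHC class II genes had r between 0.73 and 0.86. Gpnmb and Fabp5 had r = 0.62, Fth1 and Fabp5 0.63 and Gpnmb and Spp1 0.47, and this group ran against Ltc4s, with -0.51 for Gpnmb, -0.46 for Fth1 and -0.45 for Fabp5. Ltc4s and Wfdc17 had r = 0.46. Of the 12 genes leading C2 over C1, Fabp5 and Mfge8 were among the genes correlated, and Mfge8 had r = -0.20 with Ltc4s. Cells of high and low Ltc4s come from 1 library, and their order in time is not known.

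**Figure D4:**
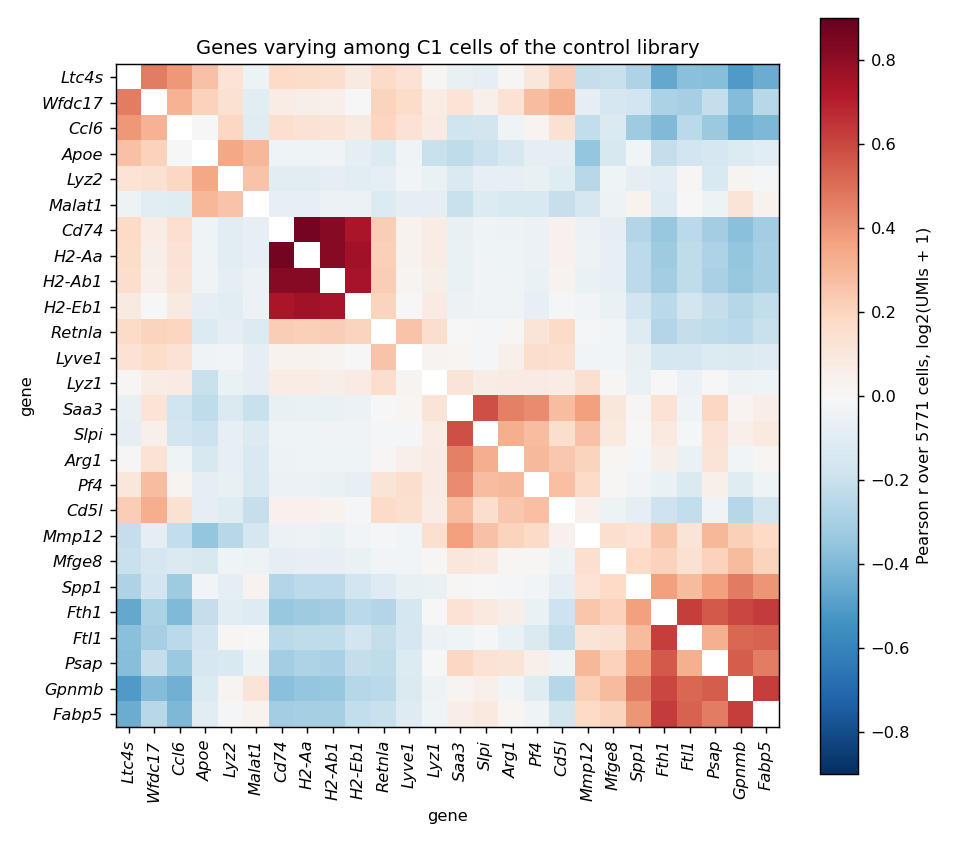
Pearson correlation, over the 5771 C1 cells of the control library thinned to 2000 UMIs, between 26 genes on a log2(UMIs + 1) scale, with red for positive and blue for negative values and the diagonal left blank. Blocks of MHC class II genes (up to 0.86), of Saa3 with Slpi (0.58) and of Gpnmb with Fabp5, Fth1, Ftl1 and Psap stand out, and the Gpnmb block is negative with Ltc4s.

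Saa3 varied with a further group: r was 0.58 with Slpi, 0.45 with Arg1 and 0.43 with Pf4. These are the genes that marked the few cells with the transcripts of resident large peritoneal macrophages. A Gata6 UMI was found in 133 C1 cells (2.05%) and a Timd4 UMI in 106 (1.64%), and 25 cells held both. Timd4 was seen in 18.8% of the Gata6 cells and in 1.28% of the cells without Gata6. After thinning the shares were 0.485% for Gata6 and 0.554% for Timd4, with Gata6 in 0 of 642 B cells (0.269% of all 744 unthinned) (which allows 0.467%) and 0 of 706 C2 cells (which allows 0.425%), and Timd4 in 0 of the 642 B cells and 0.352% of the 284 NK and T cells.

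The 25 double-positive cells carried several other genes of large peritoneal macrophages that the split did not use, though not all of that list. This split was chosen after the data were seen and is a description of cells of 1 library. The 25 cells, the 189 cells with only 1 of the UMIs and the 6262 cells with neither had median depths of 16963, 13537 and 7234 UMIs, so 1815 cells with neither and at least 10000 UMIs (median 13424) were added for depth. Prg4, the lubricin gene, stood at 380 CPM (328 to 437) in the double-positive cells, 197 CPM in the single-positive cells, 11 CPM in the cells with neither and 9.70 CPM in the deep cells with neither. Vsig4, a complement receptor of resident macrophages, followed the same order at 399, 162, 6.81 and 7.84 CPM. Transforming growth factor Tgfb2 stood at 256, 114, 4.97 and 4.4 CPM, and the adhesion receptor Selp at 80.2, 43.9, 1.27 and 1.55 CPM. Each of these 4 genes was far lower in both groups without the pair, deep or not. Other members of the list did not follow: Lyve1, a hyaluronan receptor gene, stood at 5.87 CPM (1.21 to 17.2) in the double-positive cells, 29.8 CPM in the single-positive and 22.7 CPM in the cells with neither. Naip1, an inflammasome sensor gene, stood at 21.5 CPM (10.7 to 38.5), 39.4 CPM and 16.6 CPM in the same order.

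Several abundant genes of C1 differed in these cells, some higher and others lower. Saa3 stood at 12074 CPM in the double-positive cells against 349 CPM in cells with neither, Arg1 at 2553 against 142 CPM and Pf4 at 2923 against 328 CPM. Cd5l was also higher, at 1027 against 306 CPM. Ltc4s was lower, at 413 (359 to 472) against 893 CPM, as were Apoe (6613 against 18921 CPM), Selenop (1246 against 2992 CPM), Trf (630 against 1364 CPM) and Mrc1 (102 against 320 CPM). The scavenger receptor Marco, at 160 against 8.24 CPM, and the laminin receptor subunit Itga6, at 245 against 48.9 CPM, belonged to the higher set. Fcna was alike in both, at 268 (225 to 317) and 278 CPM (274 to 283). Of the 6 markers given with the cluster, 1 was thus higher, 4 lower and 1 within its counting interval in the cells with the resident pair.

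**Figure D5:**
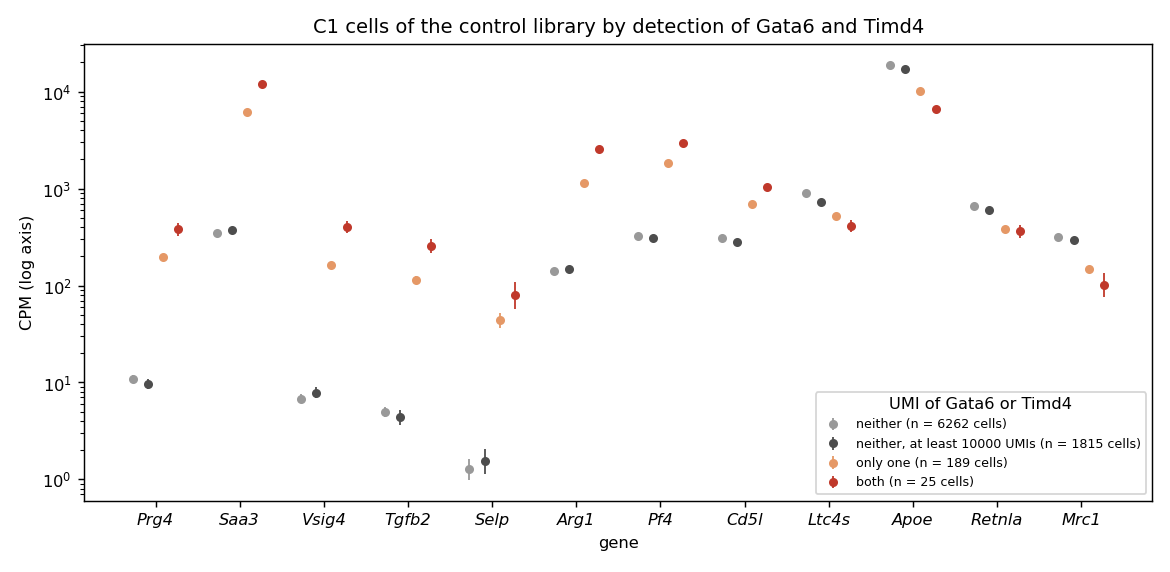
Level (CPM, log axis) of 12 genes in C1 cells of the control library with a UMI of both Gata6 and Timd4 (25 cells), only 1 of them (189), neither (6262), and neither with at least 10000 UMIs (1815), with bars for the exact 95% binomial interval. Prg4, Saa3, Vsig4, Tgfb2, Selp, Arg1, Pf4 and Cd5l are highest in the 25 cells, and Ltc4s, Apoe, Retnla and Mrc1 are lowest there.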

How the data were processed

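The deposited files hold unnormalized UMI counts (21617 genes, 41191 cells) and a table by the authors giving each cell's library, class, subcluster and percent of mitochondrial UMIs. Per the submitters' processing notes, Cell Ranger 3.0.0, Seurat 3.0 and build mm10 were used, with roles and cell filters not given in the sources used here. From the deposited counts, sums per subcluster and library were computed with Python 3.11.15, pandas 2.3.3, numpy 2.4.6 and scipy 1.17.1, scaled to CPM. Subcluster C9 was left out as a mixture by its leading genes. Genes named were the 6 markers, members of 25 programme lists, the 12 highest and lowest genes per comparison, the 15 most abundant, the 12 most variable and the 5 most like Ltc4s, without predicted, ribosomal, mitochondrial, haemoglobin, immunoglobulin, T cell receptor or sex-linked genes. 1 gene that the rule takes in is not reported here. The members and lists were chosen with earlier results of these data known. Intervals for ratios are exact conditional binomial, and for shares and single levels Clopper-Pearson (exact binomial), all at 95%. A level of 0 allows 3 counts. No doublet caller was run, and the 5% of cells with the most UMIs were left out in an alternative. Scaling alternatives used edgeR 4.0.16 and DESeq2 1.42.0 under R 4.3.3. The count rules were tested on simulated data. Coordinates are from GENCODE M21 (GRCm38), matched by symbol for 505 of 506 genes, and upstream sequences from RefSeq (GRCm38.p6).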

Additional observations from a re-analysis of the deposited data

How the results depend on the processing

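Every group has 1 library, so differences between C1 and the granuloma units have no replicate check, and cells of C1 are not replicates. No paired analysis was possible because each group has 1 library. Genes at least 2-fold higher in C1 than in every unit numbered 5 with 50 CPM added in place of 10 and 21 against granuloma units alone, where 18 were lower in place of 0. With 50 CPM added, the counts against C2 were 57 higher and 42 lower, and against C10 172 higher and 99 lower. With no filter on low counts, 305 genes were lower against C10. Without the 5% of cells with the most UMIs, C1 made up 72.6% of control cells and 83.5% of the myeloid class. The remaining counts stayed within 1.5 times under TMM scaling, median of ratios scaling, thinning to 2000 UMIs, the mean of each cell's CPM, 1 CPM added, a limit of 10% mitochondrial UMIs and, for the comparison with every unit, a minimum of 200 cells. No difference or median of at least 2-fold changed sign; of 349 single-gene differences and list medians, 35 changed sign under at least 1 alternative, all of them within 0.14 log2 units of 0 as reported, among them the complement and myeloid core medians against C4. Without the 214 cells with Gata6 or Timd4, the large peritoneal macrophage median was 0.51 against C2 and 0.69 against C10, and with 50 CPM added it was 0.27 against C2. The cause of each shift was not tested, except that 50 CPM shrinks every ratio by construction.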
